A study of Glycine max with 8 samples.

Results

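FLAG-SNAP3, the tagged form of a soybean NAC transcription factor (TF), was compared with FLAG-SNAP1, FLAG-SNAP2 and FLAG-SNAP4 for the peaks that lay inside genes. A peak was counted as in-gene when its midpoint fell between the start and the end of any gene of the RefSeq annotation. Of 10218 peaks in the 2 FLAG-SNAP3 libraries, 10166 lay on the 20 chromosomes, and 5255 of these were in-gene peaks, 3432 in replicate 1 and 1823 in replicate 2. The 8 libraries together held 57709 peaks, of which 23890 were in-gene. The share of in-gene peaks was higher in both FLAG-SNAP3 libraries than in each of the 6 others.

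NAC TFs are a plant family that binds DNA through a conserved domain at the N terminus, and many members act in senescence, stress responses and organ formation. SNAP1 to SNAP4 were studied in nodules, the root organs in which rhizobia fix nitrogen and which senesce early when nitrogen is plentiful. TF binding sites are commonly most frequent in the promoter just upstream of the transcription start site, and further sites lie within transcribed regions, in untranslated leaders, introns, exons or near the 3′ end. A peak inside a gene can therefore belong to the promoter-proximal end of that gene, to its interior, or to a regulatory element of a neighbour.

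Chromatin immunoprecipitation sequencing (ChIP-seq) had been performed on soybean hairy roots bearing nodules, with 2 biological replicates for each TF. All 4 groups shared the same construct design, in which the coding sequence of the SNAP gene, fused to a FLAG tag, was driven by the soybean pM4 promoter, so that binding was that of an introduced and tagged protein. The vectors were introduced through the hairy root strain K599. The sample labels give the genotype as SNAP1, SNAP2, SNAP3 or SNAP4 mutant, whereas the methods describe roots that expressed the tagged TF, and the latter description was used. The methods give an incubation of about 2 weeks before these roots were collected. No nitrogen level, plant age or number of pooled roots was given for them. No input or untagged library was analysed here, so sites recovered without the TF could not be subtracted.

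The annotation used held 58643 genes on the 20 chromosomes, 46816 of them protein-coding with a median length of 3351 bp, and genes covered 25.2% of the chromosomes up to the last annotated gene. It gave no strand. A distance was therefore measured to the nearest of both gene ends, and the relative position ran from 0 at an end to 0.5 in the middle. The libraries held between 3628 and 9332 deposited peaks, with FLAG-SNAP3 replicate 2 the smallest. Read numbers are not part of the lists. Only a lower bound common to every sample is stated by the study, with no value per library, so a small list cannot be told apart from a library with fewer reads.

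The midpoints of 52.4% of FLAG-SNAP3 peaks in replicate 1 and 50.5% in replicate 2 lay inside a gene. The share was 38.0% and 38.7% for FLAG-SNAP1, 38.9% and 36.1% for FLAG-SNAP2, and 45.2% and 41.9% for FLAG-SNAP4. Both FLAG-SNAP3 libraries were above all 6 others, and FLAG-SNAP4 replicate 1 came nearest. The 95% Wilson intervals were 51.1 to 53.6% and 48.9 to 52.1% for FLAG-SNAP3 and 43.9 to 46.4% for FLAG-SNAP4 replicate 1. These intervals cover counting error only and treat each peak as independent. On average, FLAG-SNAP3 reached 51.4% ± 1.32 (SD, n = 2). The 6 other libraries averaged 39.8% ± 3.23 (SD, n = 6), which is 11.6 percentage points lower. In a two-sided exact permutation test over libraries the p was 0.0714, the smallest that the 28 arrangements of 2 against 6 libraries can give, and 0.122 after Benjamini-Hochberg adjustment over 12 tests. The design therefore cannot reach 0.05. The higher share of FLAG-SNAP3 was known when the comparison was chosen, so this p is no independent support. The test also treats the 6 other libraries as interchangeable, although replicates of a TF resemble each other.

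Because the lists differ in length, the comparison was repeated with the 3611 peaks of the lowest q-value in each library. The in-gene share was then 52.3% and 50.5% for FLAG-SNAP3. It was 38.5% and 40.7% for FLAG-SNAP1, 42.0% and 38.7% for FLAG-SNAP2, and 47.4% and 43.9% for FLAG-SNAP4. The FLAG-SNAP3 libraries were again above all 6 others, by 9.53 percentage points on average (exact permutation test, p = 0.0714, adjusted p = 0.122). The same limits apply to this test.

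**Figure D1:**
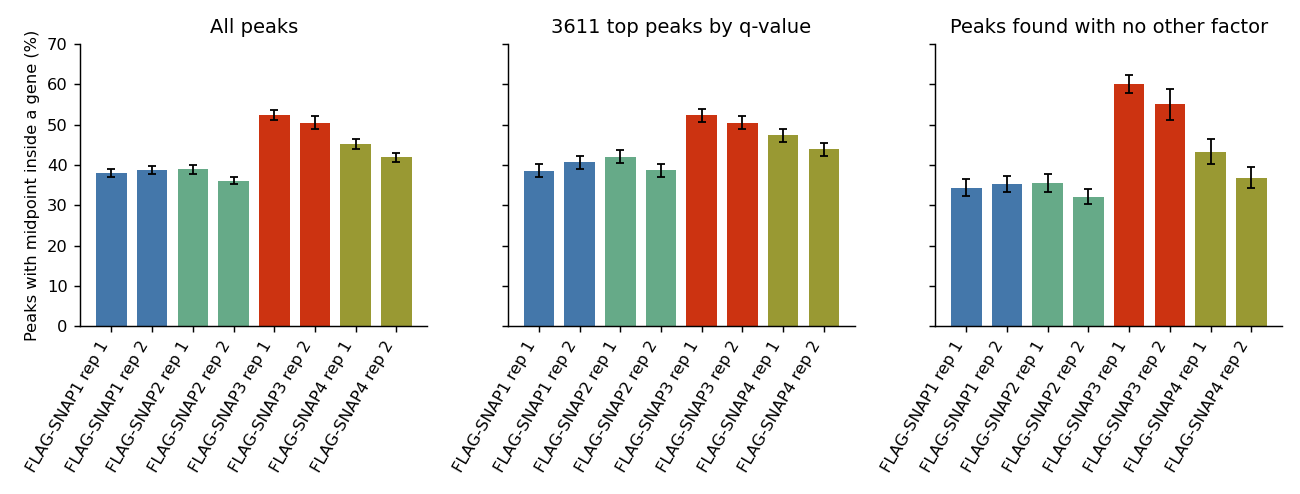
Share of peaks with the midpoint inside a gene (y axis, percent) in each of the 8 libraries (x axis), for all peaks, for the 3611 peaks of the lowest q-value, and for peaks that overlap no peak of another TF; bars start at 0 and error bars are 95% Wilson intervals for counting error. The FLAG-SNAP3 bars stand at 52.4% and 50.5% in the first panel and at 60.1% and 55.1% in the last, above all other libraries in each panel.

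The difference was not carried by the strongest peaks. Among the first 500 peaks by q-value, 52.4% and 49.8% of FLAG-SNAP3 peaks were in-gene, within the range of 43.0 to 53.8% of the other libraries. Among peaks ranked 501 to 1000 the FLAG-SNAP3 shares of 56.4% and 53.2% also lay within the range of the others, 46.6 to 60.8%. From rank 1001 to 1500 on, both FLAG-SNAP3 libraries stood above, with 54.6% and 52.6% against at most 47.6% elsewhere. At ranks 3001 to 3500 the shares were 51.8% and 50.6% for FLAG-SNAP3 and 31.4 to 43.0% for the other TFs. In these bins the FLAG-SNAP3 share stayed between 47.6 and 56.4%, whereas that of FLAG-SNAP1 and FLAG-SNAP2 was lower at low rank than at high rank. The share of peaks with summits at or within 200 bp of transfer RNA genes also changed with rank. At ranks 1 to 500 it was 48.8% and 52.4% for FLAG-SNAP3 and 59.2 to 64.2% for FLAG-SNAP1 and FLAG-SNAP2. For FLAG-SNAP4 it was 19.4% and 38.2%. At ranks 3001 to 3500 it was 0.6 to 4% in all libraries. Its part in the in-gene shares by rank was not tested.

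**Figure D2:**
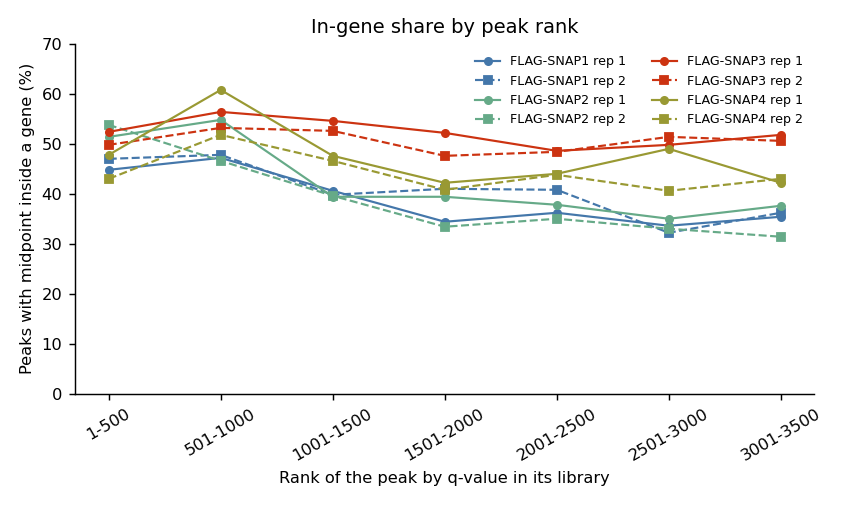
Share of in-gene peaks (y axis, percent) in successive bins of 500 peaks ranked by q-value within each library (x axis), with 1 line per library. The lines of all 8 libraries overlap in the first 1000 peaks, and both FLAG-SNAP3 lines lie above all others in the 5 later bins, with a FLAG-SNAP4 library closest.

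Peaks were next divided by how many of the 6 libraries of the other 3 TFs held an overlapping peak of at least 1 bp. Of the FLAG-SNAP3 peaks that overlapped none, 1751 in replicate 1 and 641 in replicate 2, 60.1% and 55.1% were in-gene. The same share, computed for each other library against the libraries of the TFs other than its own, was 34.4% and 35.3% for FLAG-SNAP1, 35.5% and 32.2% for FLAG-SNAP2, and 43.2% and 36.8% for FLAG-SNAP4. Both FLAG-SNAP3 libraries were above all 6 others, by 21.4 percentage points on average. For peaks shared with all 6 libraries the FLAG-SNAP3 shares were 51.7% and 51.1%, against 46.7 to 50.1% in the others, a difference of 2.70 points. With 5 libraries sharing the peak, the values overlapped, at 44.7% and 41.5% against 40.0 to 43.2%. Peaks shared by all libraries lie at the same sites, which holds their in-gene shares together, so a gap over all peaks has to be wider among the peaks that are not shared. The split was chosen after the data were seen and is given as a description of where the 11.6 points lie, with no test.

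The peaks without another TF were also required to occur in both replicates of their own TF. This left 215 FLAG-SNAP3 peaks in replicate 1 and 214 in replicate 2, of which 128 were in-gene in each, or 59.5% and 59.8%. In the other libraries the share was 31.9% and 32.0% for FLAG-SNAP1, 34.6% and 33.3% for FLAG-SNAP2, and 39.4% and 40.8% for FLAG-SNAP4. The peaks of both FLAG-SNAP3 libraries are largely the same sites here, so their shares do not stand as separate support. The 128 in-gene peaks had a median fold enrichment at percentile 37.8 of the library in replicate 1 and 27.1 in replicate 2, and the corresponding medians of the other libraries ranged from 20.01 to 35.2. In-gene FLAG-SNAP3 peaks shared with all 6 libraries stood at percentile 81.2 and 70.8.

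**Figure D3:**
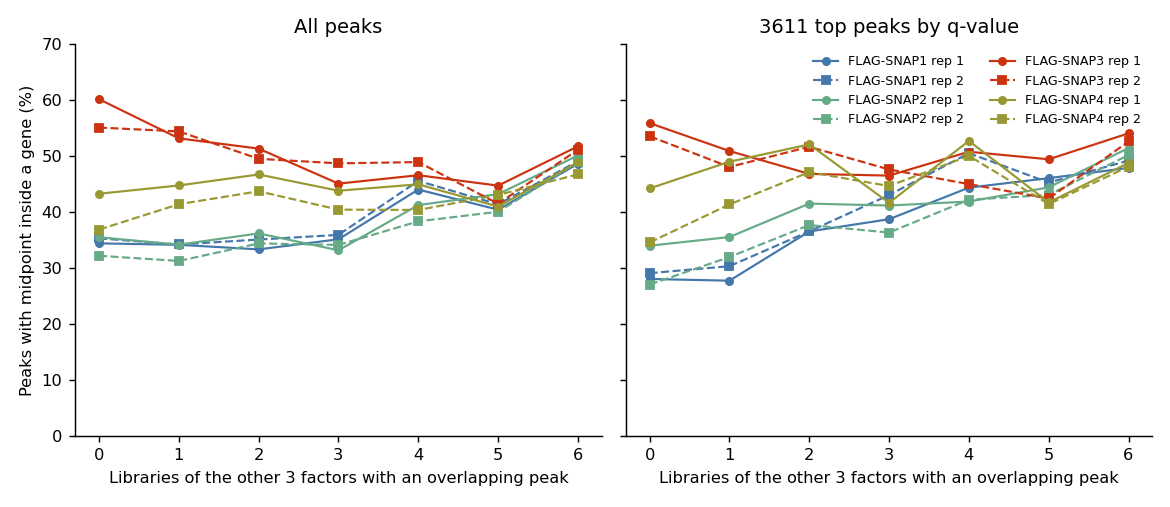
Share of in-gene peaks (y axis, percent) by the number of libraries of the other 3 TFs that hold an overlapping peak (x axis, 0 to 6), for all peaks and for the 3611 top peaks by q-value, with 1 line per library. For all peaks, the FLAG-SNAP3 lines start at 60.1% and 55.1% at 0, and the others between 32.2 and 43.2%. At 6, all lines of that panel lie between 46.7 and 51.7%. For the top peaks at 6, the FLAG-SNAP3 lines lie at 54.0% and 52.6% and the others between 47.9 and 51.4%.

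The overlap was read in the other direction with 3611 peaks in each library, so that total list length did not enter. The split of these lists still differed, with 1888 and 1823 in-gene peaks in FLAG-SNAP3 and 1392 to 1710 in the others. The overlap shares below therefore depend on the in-gene share and are no separate observation. Between 47.0 and 58.5% of the in-gene peaks of the other TFs overlapped a FLAG-SNAP3 peak over the 12 pairs of libraries, against 39.1 to 46.1% of their peaks outside genes. Of FLAG-SNAP3 peaks, 41.7 to 49.8% of those in genes and 43.1 to 50.1% of those outside genes overlapped a peak of a given other library. The ranges for in-gene and other peaks did not overlap for the other TFs and overlapped for FLAG-SNAP3, and neither difference was tested. Within FLAG-SNAP3, 41.6% of in-gene and 39.3% of other peaks of replicate 1 had a partner in replicate 2. From replicate 2, 77.1% of in-gene and 70.3% of other peaks had a partner in the longer list of replicate 1.

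Protein-coding genes held 2890 of the in-gene FLAG-SNAP3 peaks in replicate 1 and 1442 in replicate 2. These were 44.1% and 39.9% of all peaks in the library, and in the other libraries the share ranged from 30.2% to 38.4%. Transfer RNA (tRNA) genes, short genes transcribed by RNA polymerase III, held 355 and 290 of the peaks, or 5.42% and 8.03%, against 3.51 to 4.39% in the others. With 3611 peaks per library the tRNA shares overlapped, at 9.42% and 8.03% against 6.12 to 9.28%, while the protein-coding shares of 40.2% and 39.9% remained above the highest other value of 38.8%. Genes of long non-coding RNAs held 78 and 38 FLAG-SNAP3 peaks and pseudogenes 82 and 42. When summits at or within 200 bp of tRNA genes were left out, the difference in the in-gene share was 11.7 points, and 8.60 points with protein-coding genes alone.

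The distance classes inside genes were of unequal width. That from 250 to 500 bp held the largest part of the difference, 4.67 of 11.6 percentage points. The classes from 0 to 100 bp, from 100 to 250 bp and from 500 to 1000 bp held 2.78, 1.43 and 2.36 points. Between 250 and 500 bp from an end lay 13.5% and 13.4% of all FLAG-SNAP3 peaks, against 7.22 to 9.95% in the other libraries, 1.53-fold the mean of the others. In the next class inwards, from 500 to 1000 bp, FLAG-SNAP3 had 9.52% and 7.78% and the others 4.72 to 8.31%, so the ranges overlapped. More than 2000 bp inside, the shares were 2.47% and 1.77% against 2.04 to 2.204%. Within 100 bp of an end, FLAG-SNAP3 had 11.9% and 14.7% and the others 9.24 to 12.1%. Outside genes FLAG-SNAP3 was below all 6 libraries at 500 to 2000 bp from a gene end, with 8.88% and 8.75% of peaks against 11.4 to 14.7%. It was also below them beyond 2000 bp, with 19.4% and 18.5% against 20.3 to 25.3%, and overlapped with them in the 500 bp next to genes. Counting only midpoints more than 500 bp inside a gene, the shares were 16.2% and 12.7% for FLAG-SNAP3 and 9.58 to 14.7% elsewhere (difference 2.74 points, exact permutation test, p = 0.143).

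**Figure D4:**
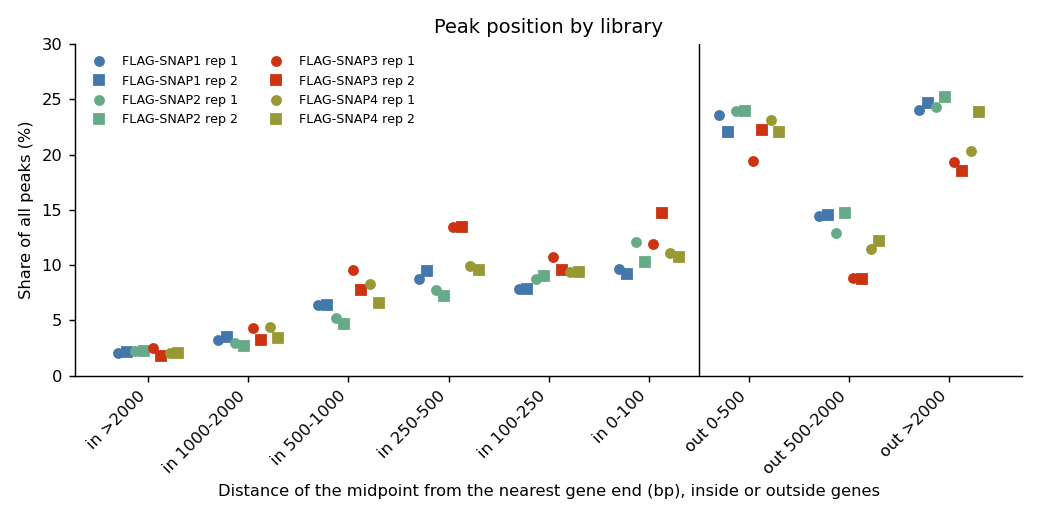
Share of all peaks of a library (y axis, percent) by distance of the midpoint from the nearest gene end in bp (x axis), inside genes on the left of the vertical line and outside genes on the right, with 1 point per library. In the class from 250 to 500 bp inside genes the FLAG-SNAP3 points at 13.5% and 13.4% lie above the rest, and from 500 to 2000 bp outside genes they lie below at 8.88% and 8.75%.

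How deep the in-gene peaks lay in their genes could not be told apart between FLAG-SNAP3 and the other TFs. The median distance of FLAG-SNAP3 in-gene peaks to the nearest gene end was 303.5 and 257 bp, and 222 to 296.5 bp in the others, with replicate 1 the highest of the 8 libraries. The means were 280 and 263 bp, a difference of 17.2 bp (exact permutation test, p = 0.571, adjusted p = 0.571). The median relative position was 0.160 and 0.168 for FLAG-SNAP3. For FLAG-SNAP1 it was 0.153 and 0.162, for FLAG-SNAP2 0.124 and 0.116, and for FLAG-SNAP4 0.172 and 0.153, and the test gave p = 0.357 (exact permutation, adjusted p = 0.429). FLAG-SNAP2 had the lowest values of both measures. A relative position under 0.1 was found for 38.6% and 36.9% of FLAG-SNAP3 in-gene peaks, against 34.3 to 46.2% in the others.

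The genes that held the peaks, tRNA genes included, had a median length below the 3047 bp of all annotated genes in all 8 libraries. The median gene length over in-gene peaks was 2552 and 2199 bp for FLAG-SNAP3, 2563 and 2589.5 bp for FLAG-SNAP1, 2595 and 2930 bp for FLAG-SNAP2, and 2250 and 2377 bp for FLAG-SNAP4. The groups overlapped, and FLAG-SNAP3 was lower by 175 bp on average (exact permutation test, p = 0.286, adjusted p = 0.429). The direction turned with equal numbers of peaks: the medians were then 2124 and 2199 bp for FLAG-SNAP3 and 1797 to 1987 bp for the others (difference 284 bp, exact permutation test, p = 0.0714, adjusted p = 0.122). No order of gene length between FLAG-SNAP3 and the other TFs can therefore be given.

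FLAG-SNAP3 in-gene peaks were narrower. The median width was 286 and 304 bp for FLAG-SNAP3, 377 and 397.5 bp for FLAG-SNAP1, 339 and 360 bp for FLAG-SNAP2, and 316 and 315 bp for FLAG-SNAP4, with both FLAG-SNAP3 values below all others (difference -55.8 bp, exact permutation test, p = 0.0714, adjusted p = 0.122). Width was not a property of in-gene peaks alone. Outside genes the medians were 257 and 279 bp for FLAG-SNAP3 and 277 to 358 bp for the others. The narrowest peak of a list also varied, from 182 to 245 bp over the 8 libraries, with 182 and 208 bp in FLAG-SNAP3, and its part in the width difference was not tested. The higher in-gene share was seen within each width class. Of peaks up to 250 bp wide, 46.9% and 45.6% were in-gene in FLAG-SNAP3 and 31.2 to 39.4% elsewhere. Of those over 400 bp, 64.5% and 65.3% were in-gene in FLAG-SNAP3 and 43.5 to 58.5% elsewhere.

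Fold enrichment, the authors' ratio of signal at the summit to the local background, was tested between libraries only as a percentile within each library. In-gene peaks of FLAG-SNAP3 had a median percentile of 45.1 and 46.1, and those outside genes 55.1 and 53.6. In the other libraries the in-gene medians ranged from 41.0 to 44.6, and outside genes the medians were 52.9 to 55.2. By this percentile, which is not the q-value rank used above, in-gene peaks stood lower than other peaks at the median in all 8 libraries. Those of FLAG-SNAP3 ranked higher in their library than those of the other TFs by 2.99 percentiles (exact permutation test, p = 0.0714, adjusted p = 0.122), and by 4.999 with equal numbers of peaks (exact permutation test, p = 0.0714). The difference was 2.40 by summit and 1.53 with protein-coding genes alone (exact permutation tests, p = 0.143 and p = 0.214). Where more of the peaks are in-gene, the in-gene median lies nearer to 50 by construction, and this part was not separated.

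**Figure D5:**
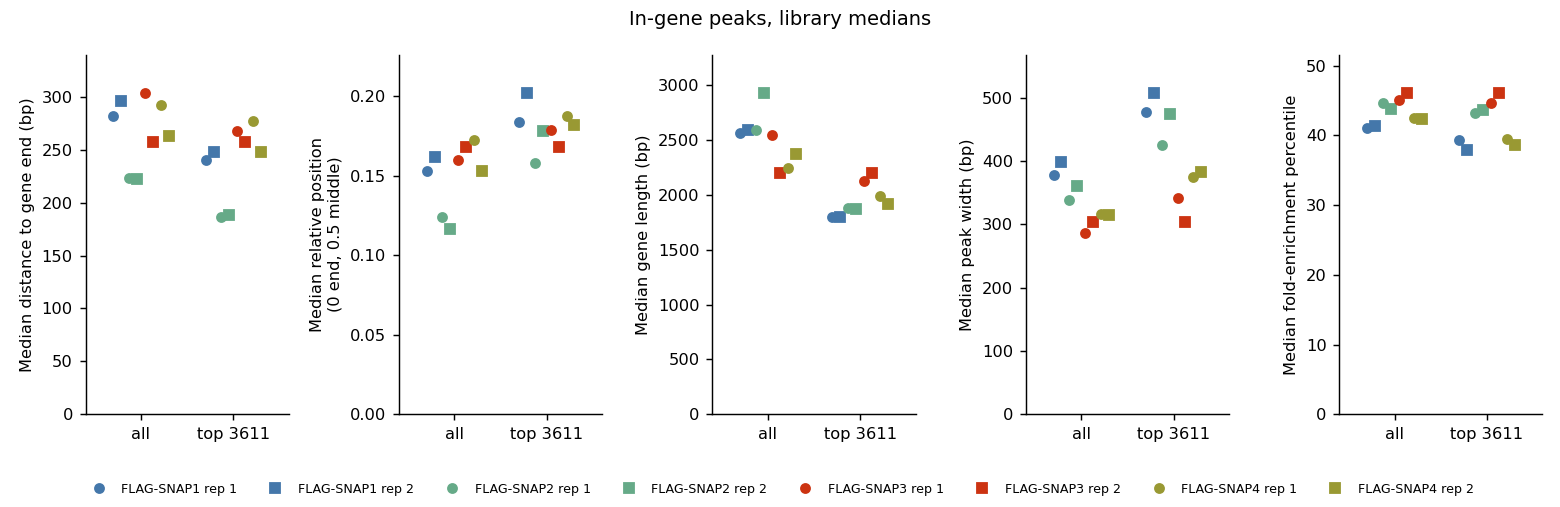
Library medians over in-gene peaks of the distance to the nearest gene end (bp), relative position, gene length (bp), peak width (bp) and fold-enrichment percentile (y axes, starting at 0), for all peaks and for the 3611 top peaks (x axis), with 1 point per library. FLAG-SNAP3 lies below all others in width, at 286 and 304 bp, and above all others in percentile, at 45.1 and 46.1, and overlaps with them in distance and relative position.

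The higher in-gene share was spread over the genome. On all 20 chromosomes the FLAG-SNAP3 mean exceeded the mean of the others, by 6.21 to 19.1 percentage points with a median of 10.9. On 17 of them both FLAG-SNAP3 libraries were above all 6 others, the exceptions being chromosomes 4, 5 and 10.

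At the level of genes, 971 protein-coding genes had an in-gene peak in both FLAG-SNAP3 libraries, which is 2.07% of those annotated. For FLAG-SNAP1 the number was 1576 (3.37%), for FLAG-SNAP2 1287 (2.75%) and for FLAG-SNAP4 1083 (2.31%). FLAG-SNAP3 thus had the fewest genes despite the highest in-gene share, and it also had the smallest list, of 3628 peaks in replicate 2. Of the 971 genes, 532 were among those of FLAG-SNAP1 (54.8% of the FLAG-SNAP3 and 33.8% of the FLAG-SNAP1 genes), 429 among those of FLAG-SNAP2 (44.2% and 33.3%) and 477 among those of FLAG-SNAP4 (49.1% and 44.0%). In-gene peaks in all 8 libraries were found at 287 genes.

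An in-gene peak in both FLAG-SNAP3 libraries and in none of the 6 others was found at 101 protein-coding genes (0.216%), and at 113 of all 58643 genes (0.193%). They made up 10.4% of the 971 genes. The corresponding numbers were 164 for FLAG-SNAP1 (10.4%), 123 for FLAG-SNAP2 (9.56%) and 30 for FLAG-SNAP4 (2.77%). In these lists of unequal length FLAG-SNAP3 did not have a larger share of such genes than FLAG-SNAP1. With 3611 peaks in each library, 173 and 175 in-gene FLAG-SNAP3 peaks lay in both replicates and overlapped no peak of another TF. In the other libraries the numbers of such peaks were 42 to 52. Gene counts with equal lists were not made for the other TFs. Of the 101 genes, 32 had a peak of another TF within 2000 bp of the gene and 69 had none. The median distance of their strongest peaks from a gene end was 299 and 283 bp, and the median fold enrichment was 4.62 and 4.66. The number depended on the replicates: it was 334 genes of any kind without replicate 1 and 872 without replicate 2.

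The strongest of these FLAG-SNAP3-only sites lay at LOC100780669 on chromosome 6 (Wm82 a4.v1, 46815029 to 46815562 in replicate 1), 18 bp inside the gene, with a fold enrichment of 9.32 and 6.86. All 6 other libraries had a peak within 2000 bp of this gene, so the site is FLAG-SNAP3-only in the sense that no other midpoint fell inside the gene. At LOC100775835 the site ran from 8765 to 8976 on chromosome 12 and lay 1472 bp inside a gene of 3934 bp, with a fold enrichment of 6.87 and 8.10 and no peak of another TF within 2000 bp. LOC100795388 (6.49 and 7.39), LOC100806270 (6.11 and 7.76) and LOC100818546 (6.49 and 6.07) had their sites at the very edge, with midpoints 25, 21 and 0 bp from the gene end in replicate 1. LOC100806270 had a peak within 2000 bp in all 6 other libraries, and LOC100795388 and LOC100818546 in none of them. Such edge sites could equally belong to the flank of the gene, since the annotation sets the boundary. LOC100812400, LOC100820058 and LOC100500474 had midpoints 326, 295 and 399 bp inside, and fold enrichments of 5.62 to 6.27 over both libraries. Of these 3 genes, LOC100820058 alone had a peak of another TF within 2000 bp, in 1 library. LOC100500465, a gene of 631 bp, had a peak of 626 bp centred 117 bp inside with a fold enrichment of 7.34 in replicate 1 and 5.31 in replicate 2, and 2 other libraries had a peak within 2000 bp.

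Among the 101 genes, 8 carry a gene symbol rather than a locus number, and they were named for that reason after their values were seen. SYP24, named as a syntaxin of plants, a group of membrane fusion proteins, had a peak of 1083 bp from 46105017 to 46106099 on chromosome 19 that spanned the gene of 928 bp (fold enrichment 6.11 and 6.76). UGT8, named as a UDP-glycosyltransferase, had 4.68 and 7.65, and GSTU27, named as a tau class glutathione S-transferase, had 4.74 and 5.03. SMT2-2, named as a sterol methyltransferase, had 4.69 and 4.40. ACS (5.13 and 4.19) and CYP32 (3.75 and 3.50) had their midpoints 800 and 336 bp inside the gene in replicate 1. TUBB2, a beta-tubulin gene, and ITPK3, named as an inositol phosphate kinase, lay at the weak end, with 3.84 and 3.73 and with 3.66 and 3.87. A peak of another TF within 2000 bp was present in 5 of the 6 libraries at CYP32, in 4 at SMT2-2, in 2 at GSTU27 and in 1 at TUBB2, and in none at SYP24, UGT8, ACS and ITPK3.

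The strongest in-gene sites of FLAG-SNAP3 were of mixed kinds. Fold enrichments are not on one scale across libraries: the median over in-gene peaks was 4.69 and 5.03 in FLAG-SNAP3 and 3.88 to 4.303 elsewhere. At LOC100797548, a gene of 17810 bp, a FLAG-SNAP3 peak from 37119072 to 37119440 on chromosome 17 lay 6576 bp inside. The fold enrichment at this gene was 15.6 and 14.3 in FLAG-SNAP3. It was 16.6 and 12.2 in FLAG-SNAP1, 9.70 and 11.4 in FLAG-SNAP2 and 15.9 and 12.8 in FLAG-SNAP4. At the genes named here, values of the other TFs belong to their strongest in-gene peak, whose position was not compared. An in-gene peak was thus found in all 8 libraries, at percentile 99.7 and 99.5 in FLAG-SNAP3 and 98.4 to 99.8 in the others. In-gene peaks in all 8 libraries were also found at LOC100816284 (13.5 and 14.7 in FLAG-SNAP3), LOC102660211 (12.7 and 12.01), LOC100808365 (11.97 and 11.7) and LOC100779257 (12.8 and 10.9). At LOC100779257 the FLAG-SNAP3 peak of replicate 1 lay 32614 bp inside a gene of 100270 bp. HDA1, named as a histone deacetylase, an enzyme class that removes acetyl groups from histones, had a peak from 57839858 to 57840300 on chromosome 1, with its midpoint 125 bp inside the gene. Its fold enrichment was 11.8 and 12.7 in FLAG-SNAP3, 14.8 and 14.6 in FLAG-SNAP1, 11.6 and 11.4 in FLAG-SNAP2, and 13.9 and 12.2 in FLAG-SNAP4, at percentiles of 98.8 and 99.04 in FLAG-SNAP3 and 98.7 to 99.5 in the others.

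At the other 4 of the 10 strongest genes the FLAG-SNAP3 percentiles were the highest of the 8 libraries. Since the genes were ranked by FLAG-SNAP3 itself, this is a description. LOC100786481 had a fold enrichment of 11.6 and 12.8 in FLAG-SNAP3, at percentile 98.7 and 99.2, and the peak ran from 4763080 to 4763730 on chromosome 4, with its midpoint 123 bp inside the gene. Its in-gene peaks stood at percentile 61.3 in FLAG-SNAP2 replicate 2 and 77.6 and 93.5 in FLAG-SNAP4, with none in the other 3 libraries, and 5 of the 6 libraries had a peak in the gene or within 2000 bp of it. LOC100798999 stood at 99.3 and 98.5 in FLAG-SNAP3, 90.7 in FLAG-SNAP2 replicate 1, and 96.2 and 93.1 in FLAG-SNAP4. The other 3 libraries had no in-gene peak there, and 5 of the 6 had a peak in the gene or within 2000 bp. LOC100782164 stood at 96.6 and 98.1 in FLAG-SNAP3, 92.2 in FLAG-SNAP1 replicate 2, 91.4 in FLAG-SNAP2 replicate 1, and 82.8 and 84.9 in FLAG-SNAP4. Its FLAG-SNAP3 midpoints lay only 48 and 32 bp inside, and all 6 other libraries had a peak in the gene or within 2000 bp, so that the lack of an in-gene peak in 2 of them rests on where the midpoint fell. LOC100812276 stood at 95.2 and 98.4 in FLAG-SNAP3, and at 8.35 to 62.1 in the 5 other libraries with an in-gene peak, all but FLAG-SNAP4 replicate 1.

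Several peaks in the same gene were rare. More than 1 in-gene peak occurred at 10.3% of the protein-coding genes with any in FLAG-SNAP3 replicate 1 and at 5.83% in replicate 2, against 9.91 to 18.0% in the other libraries. LOC100796566, a gene of 2502 bp on chromosome 5, had 4 peaks in each FLAG-SNAP3 library and 2 to 4 in the others. LOC100812618 had 3 and 4 peaks in FLAG-SNAP3 and 2 to 3 elsewhere, and LOC100802708 had 3 and 3 against 1 to 2. LOC547801, with 4 and 2, and LOC100305418, with 3 and 2, had between 0 and 2 peaks in the other libraries.

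Gene groups were drawn up from words in the gene symbols and synonyms. Their counts are read against the share of all protein-coding genes with an in-gene peak in both libraries of a TF, 2.07% for FLAG-SNAP3, 3.37% for FLAG-SNAP1, 2.75% for FLAG-SNAP2 and 2.31% for FLAG-SNAP4. The genes named below were ranked by their FLAG-SNAP3 peaks, so their values are given as percentiles of fold enrichment within each library and as a description. Of 64 WRKY genes, TFs of defence and senescence, 11 had an in-gene peak in both FLAG-SNAP3 libraries (17.2%), and 16, 11 and 17 did so for FLAG-SNAP1, FLAG-SNAP2 and FLAG-SNAP4. The FLAG-SNAP3 number lay within the range of the other TFs. WRKY37 stood at percentile 79.7 and 67.3 in FLAG-SNAP3 and at 36.7 to 65.2 elsewhere. WRKY34 stood at 64.1 and 65.1, against 16.8 in FLAG-SNAP2 replicate 1, 4.13 and 1.72 in FLAG-SNAP4, and no in-gene peak in the other 3 libraries. WRKY16, with 84.0 and 43.5, overlapped with the others at 2.63 to 74.6.

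Of 50 genes listed as NAC, the family of the SNAP TFs, 5 (10%) had an in-gene peak in both FLAG-SNAP3 libraries, compared with 11, 10 and 9 for FLAG-SNAP1, FLAG-SNAP2 and FLAG-SNAP4. NAC022 stood at percentile 81.2 and 68.5 in FLAG-SNAP3 and 30.9 and 51.1 in FLAG-SNAP1. FLAG-SNAP2 and FLAG-SNAP4 had no in-gene peak there but had a peak within 2000 bp of the gene in all of their libraries. LOC100170751 (40.3 and 64.3) and NAC018 (46.3 and 17.1) had in-gene peaks in all 8 libraries, and their FLAG-SNAP3 percentiles lay within or below the range of the others, 33.2 to 82.6 and 37.2 to 71.3.

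Of 11 genes listed under ethylene-responsive factors, 3 (27.3%, of few genes) were found in both FLAG-SNAP3 libraries and 2, 1 and 3 in those of FLAG-SNAP1, FLAG-SNAP2 and FLAG-SNAP4. ERF6, a gene of 1027 bp, was spanned by peaks of 1267 and 1316 bp in FLAG-SNAP3, at percentile 86.9 and 85.1, and stood at 57.2 to 86.85 in the others, so the ranges overlapped. ERF7 (68.6 and 51.9) and EREB (71.7 and 30.7) each had 2 in-gene peaks per FLAG-SNAP3 library. Among 11 nodulin genes, which are induced in nodules, NOD33 alone had an in-gene peak, and had it in all 8 libraries (82.9 and 51.4 in FLAG-SNAP3, 80.4 to 89.3 in the others). Of 18 nitrate and ammonium transporter genes only AMT1.6 (5.56%), an ammonium transporter gene, had one in both FLAG-SNAP3 libraries (43.5 and 67.8), and FLAG-SNAP2 replicate 1 had one there too (70.8). None of 4 leghemoglobin genes, whose products carry oxygen in nodules, and none of 6 autophagy genes had an in-gene peak in any of the 8 libraries, where 14.8% of all protein-coding genes had one, and 0 of so few genes cannot be told apart from that share. Of 5 genes matched as actin and tubulin, none had one in both FLAG-SNAP3 libraries. The match by symbol missed TUBB2, the beta-tubulin gene named above, which had one in both. The lists for trehalose, cysteine proteinase, glutamine and asparagine synthetase, ribosomal protein, histone, ubiquitin and heat shock protein matched no gene, because the annotation table gives symbols and no descriptions.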

How the data were processed

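The 8 peak lists were deposited by the authors, who trimmed reads with Trim Galore 0.6.6, mapped them with Bowtie2 2.3.4.3 to Wm82 a4.v1, kept proper pairs of mapping quality above 30, and called peaks per library, without pooling, with MACS2 2.2.7.1 at a q-value of 0.05. Per the paper's methods libraries were made with Tn5 on beads, and no control library is named. No separate removal of duplicates is named either, so whether copied fragments added to a peak is not known. The authors deposited for each peak a start, an end and a summit offset, a score (not used), a fold enrichment ratio, and −log10 p-values and q-values.

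Peaks on the 20 chromosomes were placed by midpoint in genes of RefSeq Glycine_max_v4.0, and where several genes held it, in the one with the nearest end. Top peaks were ranked by q-value. Library values were compared by two-sided exact permutation tests (Python 3.11.15, numpy 2.4.6, pandas 2.3.3, SciPy 1.17.1, with figures by matplotlib 3.10.9). P-values measure the spread between libraries only. The steps were tested on simulated data: all of 500 peaks planted in genes were assigned to them. These were long genes that overlapped no other gene, so assignment in short or overlapping genes was not covered.

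Named genes were protein-coding: the 10 with the highest mean fold-enrichment percentile over both FLAG-SNAP3 libraries among the FLAG-SNAP3-only genes and among all genes found in both, the 5 with the most peaks, and up to 3 per gene list. Comparison, lists and rules were chosen with earlier results of these data known, including the higher in-gene share of FLAG-SNAP3, which is therefore no independent support. Alternatives were the summit, protein-coding genes, the longest gene, equal numbers of peaks, a q-value of 0.0001, peaks in both replicates, leaving out peaks at tRNA genes or in all 8 libraries, narrow peaks of at most 300 bp, and leaving out each library. Measures by sharing and by width class were added after the data were seen. No sequence was used here.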

Additional observations from a re-analysis of the deposited data

Results flagged for a closer look

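Peaks outside the 20 chromosomes, on unplaced scaffolds, entered no comparison because the annotation used covers the chromosomes. FLAG-SNAP3 replicate 1 had 35 such peaks and replicate 2 had 17, or 0.531% and 0.469% of the deposited peaks, against 0.273 to 0.323% in the other libraries. They stand out only as signal in data that the comparisons left aside. Whether they lie in genes is not known here.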

How the results depend on the processing

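The in-gene share was higher with FLAG-SNAP3 under all 19 alternatives, by 2.74 to 14.3 percentage points (exact permutation p from 0.0714 to 0.286). No test in this design can reach 0.05, so none of the results changed its side of a threshold. Leaving out each library in turn gave 10.7 to 12.7 points. In the peaks without another TF the difference was 17.9 to 24.3 points over 16 alternatives. The difference in width kept its direction over 13 alternatives (-117 to -46.4 bp), as did that in the fold-enrichment percentile (1.53 to 4.999). Exchanging labels only within a replicate number is counted among the alternatives of each measure but cannot change a difference. Nor can placing peaks in the longest gene change width or percentile. The difference in median distance to a gene end ranged from -6.08 to 40.4 bp when each library was left out. It turned without FLAG-SNAP3 replicate 1. The difference in relative position turned to -0.0083 with equal numbers of peaks. That in gene length turned to 284 bp with equal numbers. Leaving out each library gave a difference in gene length of -352 to 1.25 bp, turning without FLAG-SNAP3 replicate 2. The causes were not tested. The 113 genes of any kind with an in-gene peak only with FLAG-SNAP3 became 70 at a q-value of 0.0001, 169 with equal numbers of peaks, 111 by summit and 100 when peaks were placed in protein-coding genes alone. Leaving out each library gave 128 to 872, more because fewer conditions had to be met.

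Replicate numbers do not mark a shared batch in the labels, and the in-gene share was lower in replicate 2 for 3 of the 4 TFs. Exchanging labels only within a replicate number (replicate block) left the difference of 11.6 points with an exact permutation p = 0.125, the smallest that 16 arrangements can give, and it gave p = 0.625 for distance, 0.375 for relative position and gene length, and 0.125 for width and percentile. Depth limits these results: reads per library are unknown, so a short list may come from fewer reads, and a gene without a peak is only one below the authors' threshold.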

Other observations

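Further groups of genes were counted by symbol or synonym, chosen after the data were seen, with no test. A shared symbol does not show that the genes form a single family. They are read against the 2.07% of all protein-coding genes with an in-gene peak in both FLAG-SNAP3 libraries and the 3.37, 2.75 and 2.31% for FLAG-SNAP1, FLAG-SNAP2 and FLAG-SNAP4. Of 96 genes with CYP symbols, 5 (5.21%) had an in-gene peak in both FLAG-SNAP3 libraries, and 6, 3 and 4 in both libraries of FLAG-SNAP1, FLAG-SNAP2 and FLAG-SNAP4. The numbers were 5 of 89 for BZIP symbols (5.62%, with 11, 10 and 7 for the other TFs), 4 of 81 for MYB (4.94%, with 8, 1 and 2) and 3 of 38 for HSF, the heat shock TFs (7.89%, with 5, 7 and 5). NF-Y subunits had 2 of 34, against 0, 1 and 0. CRK and PHR symbols had 1 each, of 85 and 35 genes. LBD symbols had 0 of 33, against 2, 4 and 5, and the IQD, ALDH, SWEET and GASA symbols, of 66, 49, 43 and 33 genes, had none in both FLAG-SNAP3 libraries and at most 2 with any other TF. At 2.07%, counts of 0 to 2 in groups of this size are near the share over all genes for FLAG-SNAP3.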
